A study of Mus musculus with 6 samples.

Results

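The genes described here are 42 that carry a cell from late G1 into S phase and copy its DNA: D and E cyclins, their kinases and E2F factors, and the proteins that license origins, unwind and copy DNA, supply nucleotides, join fragments and rebuild chromatin. They were chosen by symbol from the known parts of this machinery, but with earlier results of these data known. All 42 were measured among the 19818 genes with a feature of their own on the array. Each gene was read on its brightest feature by the mean over all arrays. RNA came from mature splenic B cells of the mouse that had been activated and transduced with a retrovirus carrying GFP. Cells received MYD88 L265P or IKK K171E in that vector, and the control cells the vector with no insert (EV). Every culture then spent 36 h in mitogen and 24 h without it (without anti-CD40, per the series' design), and GFP-positive cells were sorted for Affymetrix mouse ST 1.0 arrays. There were 2 arrays for each of MYD88_L265P, IKK_K171E and EV, called biological replicates in the labels. The labels give neither the mice behind a culture, nor the promoter that drove a construct, nor the IKK subunit, and EV cells share the activation, the infection and the mitogen withdrawal with the others.

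A eukaryotic cell licenses its origins in G1, when the origin recognition complex, CDC6 and CDT1 load the MCM2-7 helicase onto DNA. Cyclin D with CDK4 or CDK6 and cyclin E with CDK2 phosphorylate the retinoblastoma protein and its relatives, which frees E2F factors to switch on the genes of S phase. A resting splenic B cell is outside the cycle, and mitogens such as CD40 ligation or Toll-like receptor agonists bring it in. MYD88 is the adaptor of most Toll-like receptors and of the interleukin-1 receptor family, its L265P form recurs in human B cell lymphoma, and IKK is the kinase that releases NF-kB from its inhibitors.

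The starts of these genes are shown first, because E2F sites are the textbook mark of a G1/S gene. Promoter windows came from RefSeq on GRCm38.p6, from 250 bases before to 50 bases after a gene's start, and 35 of the 42 genes had one. Ccnd2, Ccne2, Mcm4, Gins1, Gins2, Prim2 and Pole had none in the table. The E2F words TTTCCCGC, TTTGGCGC, TTTCGCGC and TTTGCCGC were searched on both strands. At least 1 was found in 14 of the 35 genes, a share of 40%, against 2.6% of all 27025 genes with a window. The 14 were Cdk2, E2f2, E2f3, Cdc6, Cdt1, Mcm3, Mcm5, Mcm6, Mcm7, Gins3, Pola1, Rfc3, Lig1 and Uhrf1. In Mcm5 and in Mcm6, words overlapped each other and share bases. The NF-Y word CCAAT was in 20 of the 35 (57.1%, against 41.1% of all genes), and the E-box CACGTG in 7 (20%, against 8.09%). A match is a run of letters and not a site shown to be bound.

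Of 6 functional groups, a window is printed for the member with the largest change in MYD88_L265P cells that had an entry. E2f3 had 2 windows, and the printed one is the one that held an E2F word. The E2f3 window not printed held no E2F word but held an E-box. All printed windows run 5′ to 3′ on the gene's own strand, and capitals mark E2F words, or in Tyms the E-box. E2f3 lies at chr13:29986014-29986313 on the minus strand and holds the complement of TTTCCCGC from base -11 to -4, counted from the start site. Mcm3, at chr1:20820263-20820562 on the minus strand, holds that word from base 19 to 26 and TTTGGCGC from 38 to 45. Gins3, at chr8:95633309-95633608 on the plus strand, holds 1 E2F word from -41 to -34, and Pola1, at chrX:93632106-93632405 on the minus strand, 1 from -138 to -131. Rfc4, at chr16:23127681-23127980 on the minus strand, had none of the words searched. Tyms, at chr5:30073576-30073875 on the minus strand, had the E-box from -61 to -56 and no E2F word.
E2f3: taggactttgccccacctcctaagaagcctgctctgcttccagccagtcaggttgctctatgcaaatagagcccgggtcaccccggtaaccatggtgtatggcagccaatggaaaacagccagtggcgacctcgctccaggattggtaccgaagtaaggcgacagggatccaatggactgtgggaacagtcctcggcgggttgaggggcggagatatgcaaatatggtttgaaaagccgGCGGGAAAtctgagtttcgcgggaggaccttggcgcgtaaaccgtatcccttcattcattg
Mcm3: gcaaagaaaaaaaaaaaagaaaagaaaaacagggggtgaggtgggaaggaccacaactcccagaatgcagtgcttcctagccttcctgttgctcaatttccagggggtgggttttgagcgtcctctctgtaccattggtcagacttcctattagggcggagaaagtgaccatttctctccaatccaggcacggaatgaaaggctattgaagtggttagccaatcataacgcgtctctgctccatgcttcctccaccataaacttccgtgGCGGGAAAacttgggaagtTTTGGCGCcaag
Gins3: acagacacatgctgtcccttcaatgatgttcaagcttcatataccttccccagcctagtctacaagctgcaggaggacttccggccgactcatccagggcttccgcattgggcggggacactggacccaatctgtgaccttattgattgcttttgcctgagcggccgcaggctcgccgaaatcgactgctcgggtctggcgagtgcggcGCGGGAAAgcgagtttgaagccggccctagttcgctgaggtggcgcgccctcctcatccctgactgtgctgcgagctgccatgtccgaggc
Pola1: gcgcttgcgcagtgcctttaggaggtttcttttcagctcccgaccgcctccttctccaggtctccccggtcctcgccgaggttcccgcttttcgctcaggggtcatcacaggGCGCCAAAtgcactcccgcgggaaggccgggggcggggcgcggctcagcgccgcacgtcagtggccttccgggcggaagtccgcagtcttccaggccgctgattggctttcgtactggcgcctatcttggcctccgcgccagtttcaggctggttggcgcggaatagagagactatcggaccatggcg
Rfc4: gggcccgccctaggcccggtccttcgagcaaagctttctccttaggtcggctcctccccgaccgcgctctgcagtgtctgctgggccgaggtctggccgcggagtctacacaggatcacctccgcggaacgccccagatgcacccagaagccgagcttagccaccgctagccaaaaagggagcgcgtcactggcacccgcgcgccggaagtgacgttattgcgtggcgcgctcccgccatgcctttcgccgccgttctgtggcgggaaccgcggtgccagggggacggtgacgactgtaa
Tyms: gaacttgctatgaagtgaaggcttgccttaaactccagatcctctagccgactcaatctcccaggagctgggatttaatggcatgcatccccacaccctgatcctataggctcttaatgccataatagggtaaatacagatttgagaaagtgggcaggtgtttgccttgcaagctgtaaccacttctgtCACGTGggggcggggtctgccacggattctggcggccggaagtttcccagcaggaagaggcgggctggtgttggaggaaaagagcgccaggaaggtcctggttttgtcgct

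Most replication genes read higher in MYD88_L265P cells than in EV cells, and in 37 of the 42 genes the means ran MYD88_L265P, IKK_K171E, EV from high to low. In MYD88_L265P over EV, 26 of the 42 genes were higher at an adjusted p below 0.05 and none was lower, 19 of them by at least 2-fold. The share called among all 21542 features tested was 9.32% higher and 7.33% lower. The median log2 fold change was 0.99 over the 42 genes, against -0.11 over all features. At an unadjusted p below 0.05, 37 of the genes differed, and of these Tk1 alone was lower. Of all 21542 features, 8342 had such a p. Both MYD88_L265P arrays stood above both EV arrays for 37 genes and below for 2 (Ccnd3 and Tk1), and 23.2% of all features stood above. When every array was given one common median, the calls among all features were 77.7% higher ones, against 56% as deposited, and 28 of the 42 genes were called higher.

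In IKK_K171E over EV, Ccne2 and E2f3 were the 2 genes called higher, and none was called lower. Across all features 0.956% were called higher and 0.413% lower. The median log2 fold change was 0.69, against -0.04 over all features, 39 of the 42 values were above 0, and 25 genes had an unadjusted p below 0.05. Of all 21542 features, 3675 had such a p. Both IKK_K171E arrays stood above both EV arrays for 29 genes, as they did for 17.6% of all features. These values and those of MYD88_L265P rest on the same EV arrays. With the replicate number as a block, 19 genes were called higher by the numbers of the descriptions and 24 by those of the titles, while the labels do not say what a number marks.

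MYD88_L265P over IKK_K171E gave no call among the 42 genes by limma, where 0.873% of all features were called higher and 0.877% lower. That comparison had 11 genes with an unadjusted p below 0.05, all of them higher in MYD88_L265P except Tk1. Such a p was reached by 4221 of all 21542 features. The median difference was 0.27 on the log2 scale, against -0.05 over all features, and the 95% interval stayed under a 2-fold increase for 36 of the 42 genes. Both MYD88_L265P arrays stood above both IKK_K171E arrays for 20 genes, and 20.9% of all features did so. The same blocks gave 1 call and 7 calls higher here. With a common median, 66.4% of the calls among all features in this comparison were higher ones, against 49.9% as deposited.

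**Figure D1:**
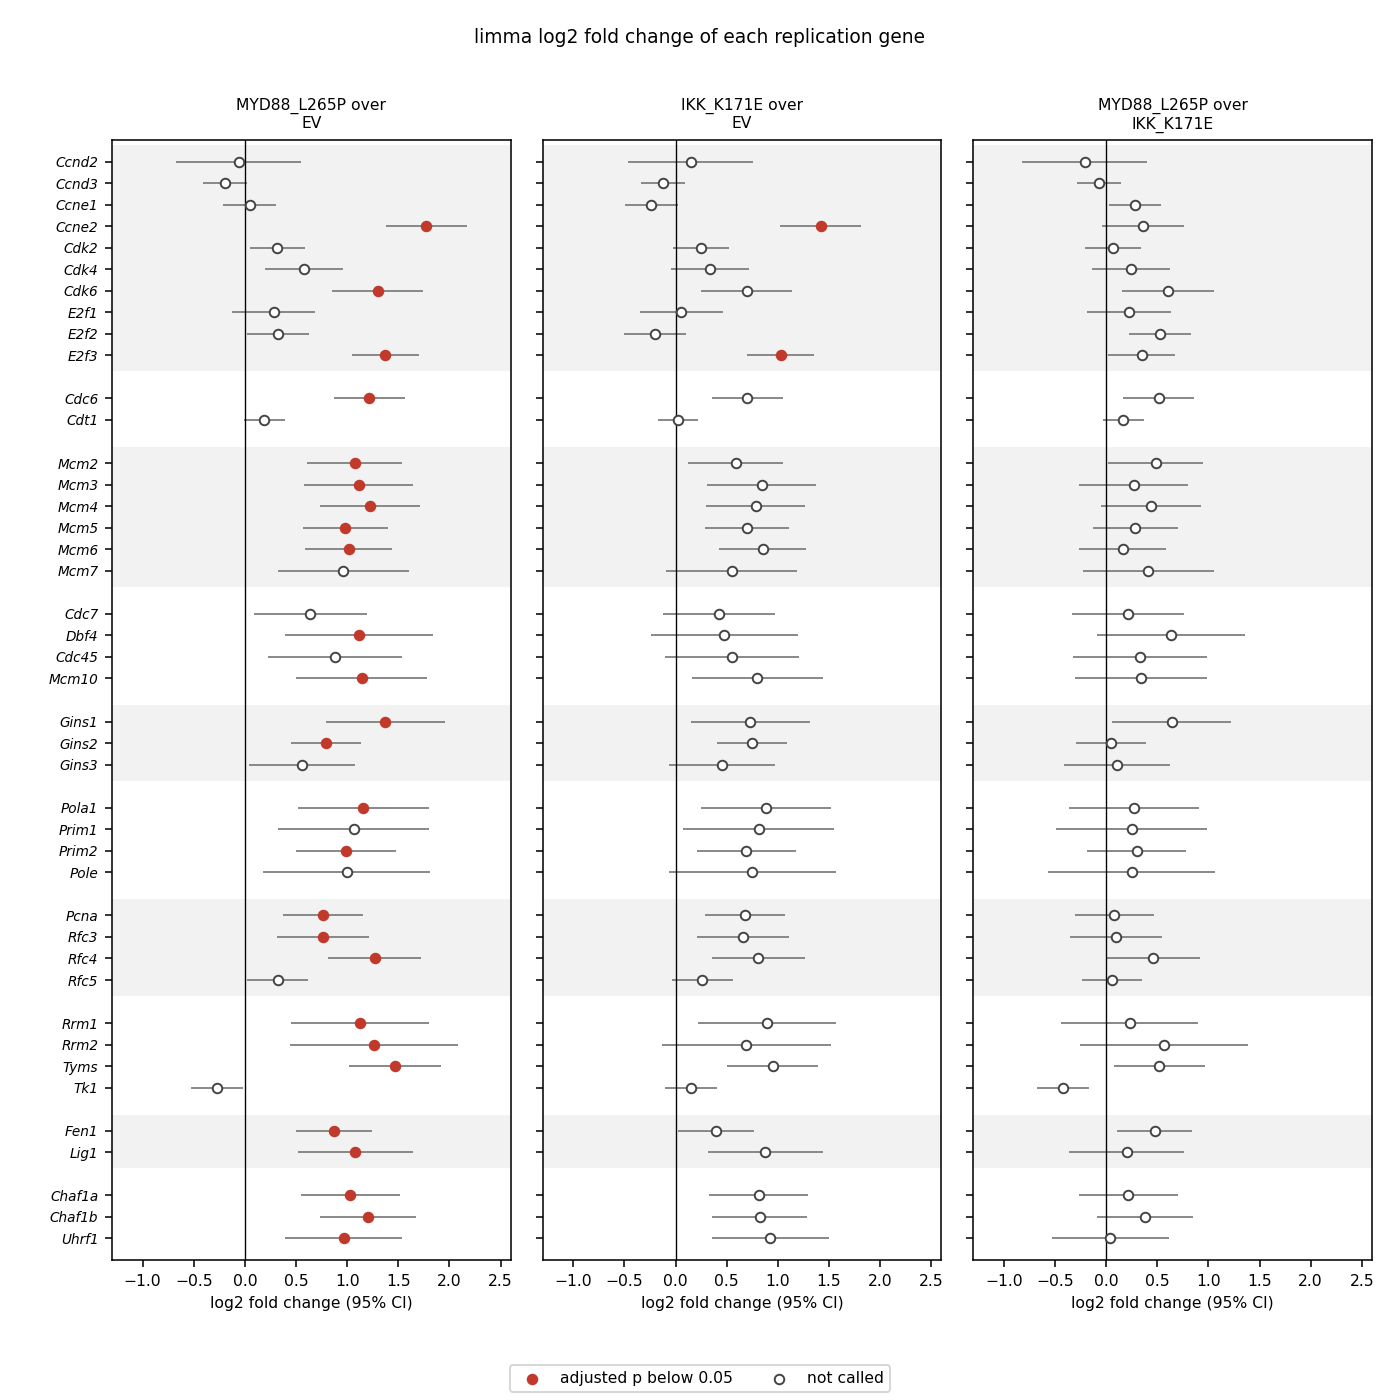
Log2 fold change of each of the 42 genes with its 95% interval in MYD88_L265P over EV, IKK_K171E over EV and MYD88_L265P over IKK_K171E. Red marks an adjusted p below 0.05, reached by 26 genes in the MYD88_L265P over EV panel, by Ccne2 and E2f3 in the IKK_K171E over EV panel, and by none in the panel that sets the constructs against each other.

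The arrays of a group did not all sit together. EV replicate 1 read above EV replicate 2 in 41 of the 42 genes, by a median of 0.53 on the log2 scale, and IKK_K171E replicate 1 read above replicate 2 in 41, by a median of 0.40. The MYD88_L265P arrays differed by a median of 0.07. EV replicate 2 was the lowest of the 6 arrays for 37 genes. IKK_K171E replicate 1 stood above the lower MYD88_L265P array in 22 genes, and IKK_K171E replicate 2 above EV replicate 1 in 29. With EV replicate 2 left out, 11 genes were called higher in MYD88_L265P over EV, and with EV replicate 1 left out, 33 were. In IKK_K171E over EV, leaving out EV replicate 1 gave 17 genes, leaving out IKK_K171E replicate 2 gave 4, and leaving out IKK_K171E replicate 1 gave 0. Leaving out an array of the third group, which enters through the shared spread, also moved counts: without MYD88_L265P replicate 1 or 2 there was no call in IKK_K171E over EV. Without MYD88_L265P replicate 1 there were 4 calls in MYD88_L265P over EV (Ccne2, E2f3, Cdc6 and Tyms), and without replicate 2 there were 2 (Ccne2 and E2f3). Those fits lose the pair with the smallest spread, so the pooled spread is then set by the EV and IKK_K171E pairs. The part of this in the counts was not tested.

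**Figure D2:**
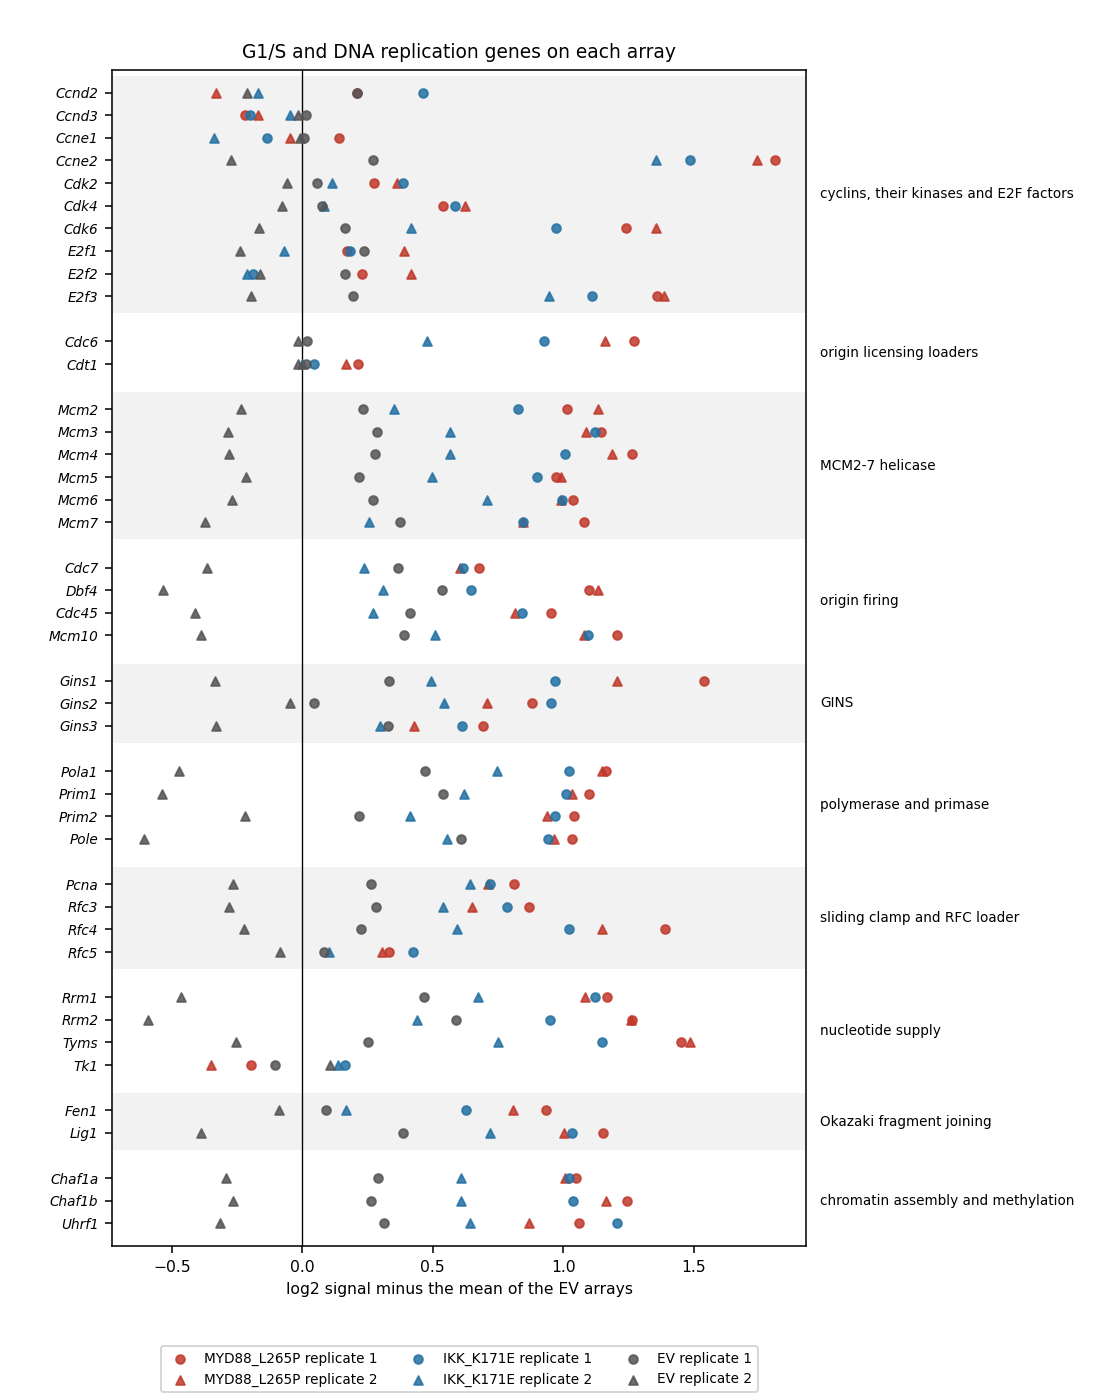
Log2 value of each gene on each of the 6 arrays minus the mean of the EV arrays (circles, replicate 1; triangles, replicate 2). The EV replicates are split for most genes, with replicate 2 lowest of all arrays in 37 of 42, while the MYD88_L265P replicates lie close together.

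**Figure D3:**
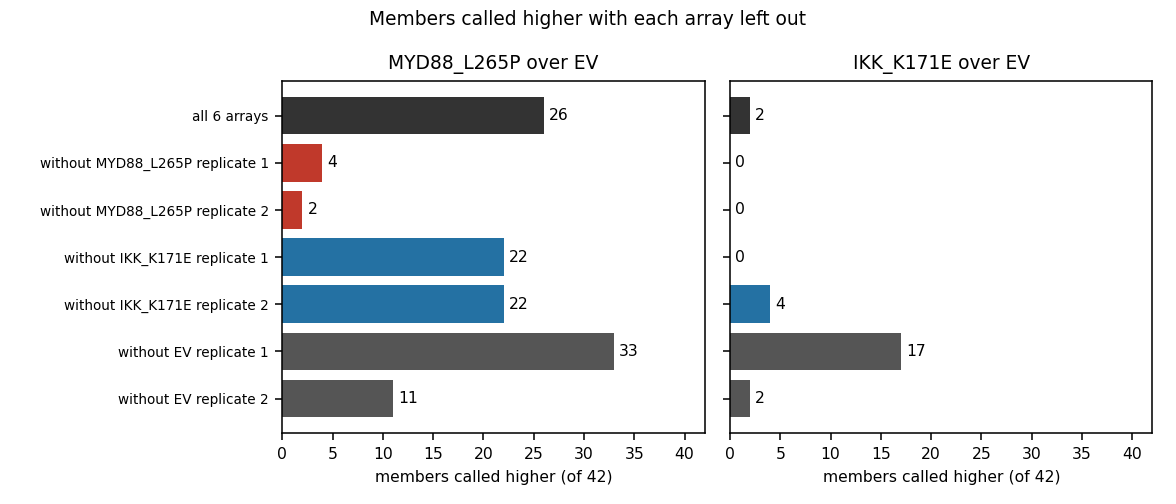
Number of the 42 genes called higher at an adjusted p below 0.05 when each array in turn is left out, beside the count with all arrays. For MYD88_L265P over EV the count is 26 with all arrays and between 2 and 33 with 1 left out, and for IKK_K171E over EV it is 2 and between 0 and 17.

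In bulk RNA from sorted cells, fewer cells in S phase and less replication RNA per cell cannot be told apart. Genes of the next phases were read beside them for that reason. Of 34 measured G2/M and mitosis genes, 3 were called higher in MYD88_L265P over EV and none in IKK_K171E over EV, where none had an unadjusted p below 0.05. Over all features 9.32% and 0.956% were called higher in these comparisons, so the counts of G2/M calls were near the background. The values themselves were mostly higher in MYD88_L265P over EV. There 33 of the 34 were above 0 and 22 had an unadjusted p below 0.05, against 7239 and 8342 of all 21542 features. Both MYD88_L265P arrays stood above both EV arrays for 29, and for 23.2% of all features. The G2/M genes had median log2 fold changes of 0.86 in MYD88_L265P over EV and 0.35 in IKK_K171E over EV. In MYD88_L265P over IKK_K171E their median was 0.47, against 0.27 for the 42 replication genes, and none was called. Both MYD88_L265P arrays stood above both IKK_K171E arrays for all 34, against 20 of the 42 replication genes and 20.9% of all features. Cdk1, the kinase that drives entry into mitosis, was higher by 1.18 (SE 0.323, adjusted p = 0.0484) and Incenp, a scaffold of the chromosomal passenger complex, by 0.91 (SE 0.251, adjusted p = 0.0498) in MYD88_L265P. EV replicate 1 read above replicate 2 in all 34, by a median of 1.13, and above the IKK_K171E mean in 32 of 34, whereas it did so in 6 of the 42 replication genes. The difference between the lists was not tested.

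Labels and cell content were checked on the same arrays. Myd88 read 12.25 and 12.31 on MYD88_L265P arrays, 9.43 and 9.14 on IKK_K171E arrays and 9.30 and 9.35 on EV arrays. Ikbkb, which encodes the beta subunit of IKK, read 9.69 and 9.68 in MYD88_L265P, 11.35 and 10.68 in IKK_K171E, and 9.98 and 10.22 in EV. The gap to EV in IKK_K171E was 0.91 (adjusted p = 0.0848). Correlations over all features were 0.989 to 0.995 between replicates and 0.967 to 0.990 between arrays of different groups. Marker counts stand beside the share called among all features. It was 9.32% higher and 7.33% lower in MYD88_L265P over EV, and 0.956% and 0.413% in IKK_K171E over EV. A single call among 10 or 15 markers in MYD88_L265P over EV was near these shares. Of 9 B cell markers, 6 were lower in MYD88_L265P and 1 in IKK_K171E than in EV, and their median level ran between 11.44 and 12.26 on the 6 arrays. Of 10 markers of antibody-secreting cells, 5 were higher in MYD88_L265P and none in IKK_K171E. Their summed log2 level was 95.04 to 97.67 in MYD88_L265P, 84.59 to 89.57 in IKK_K171E and 86.64 to 88.27 in EV. Of 15 monocyte and macrophage markers, 1 was lower in MYD88_L265P, and in IKK_K171E Csf1r was higher and Adgre1 lower. The summed log2 level of those 15 was 132.47 to 135.07 in MYD88_L265P, 140.68 to 143.65 in IKK_K171E and 134.32 to 136.18 in EV. In MYD88_L265P over EV, 4 of 10 T cell, 2 of 10 NK cell, 2 of 10 dendritic and 1 of 10 neutrophil markers were lower and 1 dendritic marker was higher, and none of 5 erythroid markers was called. In IKK_K171E over EV, 3 dendritic markers were higher and no T cell, NK cell, neutrophil or erythroid marker was called. The part of any of these in the replication genes was not tested.

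Among the 10 cyclins, kinases and E2F factors, Ccne2, Cdk6 and E2f3 rose in MYD88_L265P cells, and the list's median log2 fold change was 0.32. Ccne2 encodes cyclin E2, which activates CDK2 at the G1/S border. Its log2 value was 10.40 and 10.34 in MYD88_L265P, 10.08 and 9.95 in IKK_K171E, and 8.87 and 8.32 in EV. The groups did not overlap, and the EV arrays lay more than 1 unit below every other array. Ccne2 was higher than in EV by 1.78 in MYD88_L265P (SE 0.170, 95% interval 1.38 to 2.18, adjusted p = 0.00425) and by 1.42 in IKK_K171E (adjusted p = 0.023). The 0.36 between the constructs had an interval of -0.04 to 0.76 (adjusted p = 0.293).

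E2f3, an activating E2F, read 10.02 and 10.04 in MYD88_L265P, 9.77 and 9.60 in IKK_K171E, and 8.85 and 8.46 in EV. Again no array of one group fell within another. It rose by 1.37 in MYD88_L265P (SE 0.139, adjusted p = 0.00425) and by 1.03 in IKK_K171E (adjusted p = 0.0296), and the constructs differed by 0.35 (interval 0.02 to 0.67, adjusted p = 0.238). A dimmer E2f3 feature gave 0.59 in MYD88_L265P (adjusted p = 0.0122) and 0.45 in IKK_K171E, where it was not called (adjusted p = 0.0775). Ccne2 and E2f3 were called in MYD88_L265P over EV with any single array left out, and in IKK_K171E over EV in 3 of those 6 fits. Cdk6, a partner of the D cyclins, rose by 1.30 in MYD88_L265P (SE 0.191, adjusted p = 0.00921).

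Their close relatives did not pass the test. Ccne1, the other cyclin E gene, differed by 0.05 in MYD88_L265P and -0.24 in IKK_K171E, and Ccnd2, the D cyclin of activated B cells, by -0.06 and 0.15. The sign of both in MYD88_L265P changed with the array left out, and it also changed for Ccne1 with quantile normalization and for Ccnd2 with a common median. Ccnd3, the D cyclin of germinal centre B cells, read 8.85 and 8.90 in MYD88_L265P, 8.87 and 9.02 in IKK_K171E, and 9.08 and 9.05 in EV. All 4 arrays with a construct were below both EV arrays, with log2 fold changes of -0.19 in MYD88_L265P (95% interval -0.41 to 0.02, adjusted p = 0.164) and -0.12 in IKK_K171E (adjusted p = 0.55). Ccnd3 was the only member lower than EV in both constructs. The kinases Cdk4 and Cdk2 gave 0.58 (SE 0.162, adjusted p = 0.0505) and 0.32, and the activating factors E2f1 and E2f2 gave 0.28 and 0.32 in MYD88_L265P. E2f2 was -0.20 in IKK_K171E, so the constructs differed by 0.52 with an interval of 0.22 to 0.83 (adjusted p = 0.107).

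Of the 2 loaders of the helicase, Cdc6 rose in MYD88_L265P and Cdt1 did not pass the test. Cdc6, the ATPase that brings MCM2-7 to origins, read 9.56 and 9.45 in MYD88_L265P, 9.21 and 8.77 in IKK_K171E, and 8.31 and 8.27 in EV. It rose by 1.22 in MYD88_L265P (SE 0.147, adjusted p = 0.00579), while the 0.70 in IKK_K171E was not called (adjusted p = 0.0731). Cdt1, its partner in loading, read 8.42 and 8.38 in MYD88_L265P, 8.25 and 8.21 in IKK_K171E, and 8.23 and 8.19 in EV. It was 0.19 higher in MYD88_L265P (adjusted p = 0.139) and within 0.02 of EV in IKK_K171E, so its 6 arrays spanned little of the range seen for Cdc6.

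Of the 6 subunits of the MCM2-7 helicase, 5 rose in MYD88_L265P and Mcm7 fell short of the test. Mcm4 read 11.34 and 11.26 in MYD88_L265P, 11.08 and 10.64 in IKK_K171E, and 10.36 and 9.80 in EV, a rise of 1.22 (SE 0.206, adjusted p = 0.0132). Mcm3 read 10.56 and 10.51 in MYD88_L265P, 10.54 and 9.99 in IKK_K171E, and 9.71 and 9.13 in EV, a rise of 1.11 (SE 0.226, adjusted p = 0.0214). For both genes IKK_K171E replicate 1 was nearer the MYD88_L265P arrays, and replicate 2 nearer the higher EV array. Mcm2, Mcm6 and Mcm5 rose by 1.07, 1.01 and 0.98 with adjusted p-values of 0.0165, 0.0154 and 0.0155. Mcm7 was higher by 0.96, close to its partners, but with an SE of 0.272 and an adjusted p of 0.0525. In IKK_K171E the 6 subunits were higher by 0.55 to 0.85, none of them called.

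Origin firing genes, which turn a loaded helicase into a moving one, gave 2 calls of 4. Mcm10, which helps the helicase start, read 9.65 and 9.52 in MYD88_L265P, 9.54 and 8.95 in IKK_K171E, and 8.83 and 8.06 in EV, and rose by 1.14 (SE 0.273, adjusted p = 0.0332). Dbf4, the regulatory subunit of the CDC7 kinase, read 10.68 and 10.71 in MYD88_L265P, 10.23 and 9.89 in IKK_K171E, and 10.11 and 9.04 in EV, and rose by 1.11 (SE 0.307, adjusted p = 0.0491). EV replicate 1 of Dbf4 lay between the IKK_K171E arrays, and IKK_K171E differed from EV by 0.48 (adjusted p = 0.488). Cdc7 itself was higher by 0.64 (adjusted p = 0.0943) and Cdc45, a core helicase partner, by 0.88 (adjusted p = 0.068) in MYD88_L265P.

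The GINS complex binds CDC45 and MCM2-7 to complete the active helicase, and 2 of its 3 subunits among the members rose. Its remaining subunit, Gins4, was read with the other genes of the pathway. Gins4 was higher by 0.53 in MYD88_L265P (adjusted p = 0.0321) and by 0.30 in IKK_K171E, where it was not called (adjusted p = 0.283). Gins1 read 9.32 and 8.98 in MYD88_L265P, 8.75 and 8.27 in IKK_K171E, and 8.11 and 7.44 in EV, and rose by 1.37 (SE 0.248, adjusted p = 0.0156). Its constructs were 0.64 apart, with an interval of 0.06 to 1.23 and an adjusted p of 0.226. Gins2 read 10.67 and 10.50 in MYD88_L265P, 10.74 and 10.33 in IKK_K171E, and 9.83 and 9.74 in EV, and rose by 0.79 in MYD88_L265P (SE 0.145, adjusted p = 0.0164). For Gins2 the IKK_K171E arrays enclosed the MYD88_L265P ones, both pairs were above EV, and the difference between constructs was 0.05 (interval -0.30 to 0.39). Gins3 was higher by 0.56 in MYD88_L265P (adjusted p = 0.109).

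Polymerase and primase genes had the widest gap between EV arrays of the 10 functional groups, a median of 1.01. Pola1, the catalytic subunit of the polymerase that lays down primers with primase, read 11.22 and 11.21 in MYD88_L265P, 11.08 and 10.80 in IKK_K171E, and 10.53 and 9.59 in EV, and rose by 1.16 (SE 0.272, adjusted p = 0.0321). Prim1, the catalytic primase subunit, read 12.07 and 12.00 in MYD88_L265P, 11.98 and 11.59 in IKK_K171E, and 11.51 and 10.43 in EV. Its 1.07 in MYD88_L265P missed the threshold (SE 0.314, adjusted p = 0.058), although no EV array reached any other array. Prim2, the large primase subunit, rose by 0.99 (adjusted p = 0.023), and Pole, the leading-strand polymerase, was higher by 1.00 with an SE of 0.347 (adjusted p = 0.0841).

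The sliding clamp PCNA holds polymerases on DNA, and RFC proteins load it. Rfc4 read 10.61 and 10.37 in MYD88_L265P, 10.25 and 9.82 in IKK_K171E, and 9.45 and 9.002 in EV, and rose by 1.27 (SE 0.194, adjusted p = 0.0101). Pcna read 13.12 and 13.02 in MYD88_L265P, 13.03 and 12.95 in IKK_K171E, and 12.57 and 12.04 in EV, and rose by 0.76 (SE 0.165, adjusted p = 0.0258). Both constructs lay close together for Pcna, 0.08 apart, and clear of EV. Rfc3 rose by 0.76 (adjusted p = 0.0384), while Rfc5 was 0.32 higher and not called (adjusted p = 0.11). The remaining RFC genes, Rfc1 and Rfc2, were read with the other genes of the pathway and were not called. Rfc1 differed by 0.12 (adjusted p = 0.572) and Rfc2 by -0.34 (adjusted p = 0.119) in MYD88_L265P over EV. For Rfc2 both MYD88_L265P arrays were below both EV arrays.

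Nucleotide supply held the largest median of the 10 functional groups in MYD88_L265P over EV, 1.19, and also Tk1, the member with the lowest value. Tyms, thymidylate synthase, read 10.51 and 10.55 in MYD88_L265P, 10.21 and 9.81 in IKK_K171E, and 9.31 and 8.81 in EV, and rose by 1.47 (SE 0.189, adjusted p = 0.00682). Rrm2, the S phase subunit of ribonucleotide reductase, read 11.58 and 11.57 in MYD88_L265P, 11.26 and 10.75 in IKK_K171E, and 10.90 and 9.72 in EV, and rose by 1.26 (SE 0.349, adjusted p = 0.0499). The higher EV array of Rrm2 was above the lower IKK_K171E array. Rrm1, the large subunit, rose by 1.13 (adjusted p = 0.0394). Tk1, the thymidine salvage kinase, was the exception, at -0.27 in MYD88_L265P over EV (SE 0.107, adjusted p = 0.11) and 0.15 in IKK_K171E over EV. Its constructs differed by -0.42 (interval -0.67 to -0.17, adjusted p = 0.115). The other Tk1 feature gave 0.15 in MYD88_L265P and 0.40 in IKK_K171E, so the sign in MYD88_L265P depended on the feature. With quantile normalization Tk1 was the 1 member called lower in MYD88_L265P (-0.42, adjusted p = 0.0486).

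The members that finish the lagging strand and those that repack DNA were all called higher in MYD88_L265P, 2 of 2 and 3 of 3. Lig1, the ligase of Okazaki fragments, read 10.77 and 10.62 in MYD88_L265P, 10.65 and 10.34 in IKK_K171E, and 10.01 and 9.23 in EV, and rose by 1.08 (SE 0.239, adjusted p = 0.0273). Fen1, the flap nuclease, read 9.03 and 8.91 in MYD88_L265P, 8.72 and 8.27 in IKK_K171E, and 8.19 and 8.01 in EV, and rose by 0.87 (SE 0.157, adjusted p = 0.0156). IKK_K171E lay near MYD88_L265P for Lig1 and near the middle for Fen1. Of CAF-1, which deposits histones behind the fork, the 2 subunits among the members were both called higher. Its remaining subunit, Rbbp4, was read with the other genes of the pathway. Rbbp4 was 0.28 higher in MYD88_L265P and not called (adjusted p = 0.0587). Chaf1b read 9.89 and 9.81 in MYD88_L265P, 9.68 and 9.26 in IKK_K171E, and 8.91 and 8.38 in EV, and rose by 1.20 (SE 0.198, adjusted p = 0.0124). Chaf1a read 9.95 and 9.91 in MYD88_L265P, 9.92 and 9.51 in IKK_K171E, and 9.19 and 8.61 in EV, and rose by 1.03 (SE 0.206, adjusted p = 0.0207). Uhrf1, which brings the maintenance DNA methyltransferase to new DNA, rose by 0.97 in MYD88_L265P (adjusted p = 0.0384) and stood 0.93 above EV in IKK_K171E (adjusted p = 0.116).

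**Figure D4:**
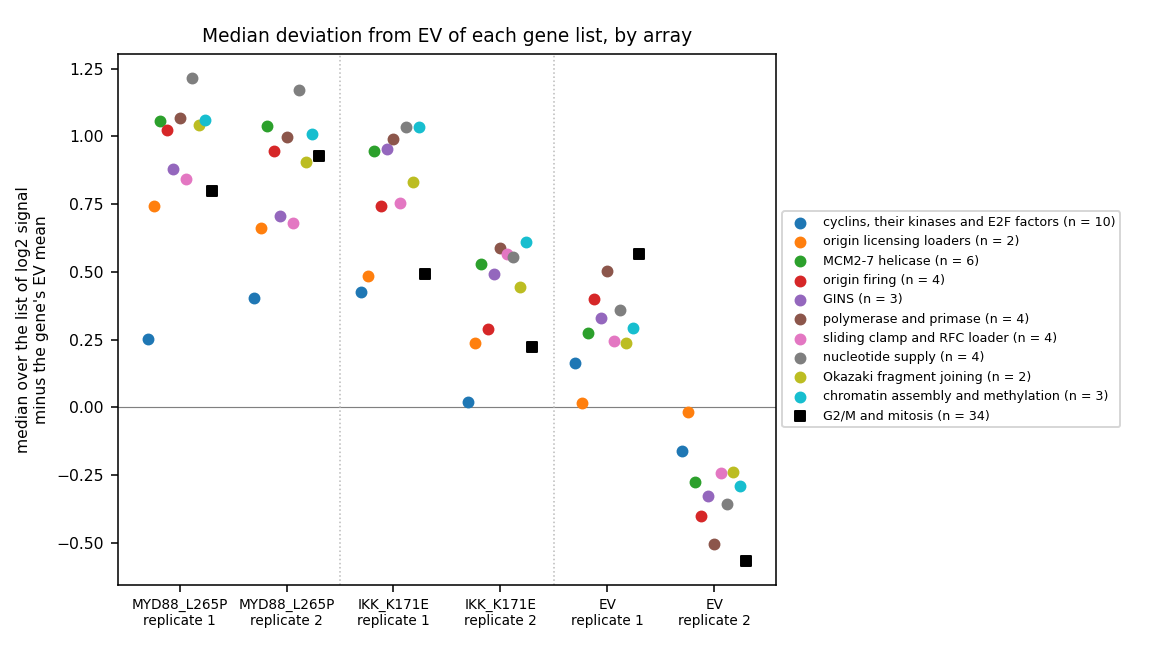
Median, over the genes of each functional group, of the log2 value minus the gene's EV mean, on each of the 6 arrays, with G2/M and mitosis genes as black squares. On the MYD88_L265P arrays the median is lowest for cyclins, kinases and E2F factors (0.25 and 0.40) and highest for nucleotide supply (1.22 and 1.17), while the G2/M list has the widest gap between the EV arrays.

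The 16 members not called in MYD88_L265P over EV were split for description at a log2 fold change of 0.5. Cdk4, Mcm7, Cdc7, Cdc45, Gins3, Prim1 and Pole were higher by 0.56 to 1.07, with adjusted p-values of 0.0505 to 0.109 and a median gap of 0.75 between the EV arrays. The other 9, Ccnd2, Ccnd3, Ccne1, Cdk2, E2f1, E2f2, Cdt1, Rfc5 and Tk1, lay between -0.27 and 0.32, with a median EV gap of 0.12. The called genes ranged from 0.76 to 1.78, with a median EV gap of 0.54 and a largest one of 1.18, so the gap did not separate called from uncalled genes. Of the 21 called genes with a promoter window, 9 held an E2F word, as did 5 of the 14 genes not called.

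Other genes of the pathway, 77 measured of 80 listed, gave 40 higher and 4 lower calls in MYD88_L265P over EV, and their log2 fold changes had a median of 0.62. Against EV, IKK_K171E had 2 that were higher and 3 that were lower, and in MYD88_L265P over IKK_K171E 1 was higher. Over all features, 9.32% were called higher and 7.33% lower in MYD88_L265P over EV, and 0.956% and 0.413% in IKK_K171E over EV. In MYD88_L265P over IKK_K171E 0.873% were called higher, so the 1 call there was near the background. Of 6 origin recognition genes 3 rose in MYD88_L265P, led by Orc1 (1.42, adjusted p = 0.00973) and Orc2 (1.35, adjusted p = 0.00735). Of 12 initiation and checkpoint genes 7 rose, with Dscc1, a subunit of an alternative clamp loader, at 1.88 (adjusted p = 0.0211) and Tipin, which steadies the fork, at 1.77 (adjusted p = 0.0114).

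Fork subunits gave 8 higher and 1 lower of 15. Pole2, the second subunit of polymerase epsilon, rose by 1.60 (adjusted p = 0.0154) and Rpa3, of the single-strand binding complex, by 1.46 (adjusted p = 0.0156). Pold4, the small accessory subunit of polymerase delta, ran the other way. It read 9.64 and 9.66 in MYD88_L265P, 10.07 and 9.96 in IKK_K171E, and 10.93 and 11.16 in EV, with log2 fold changes of -1.40 (adjusted p = 0.00302) and -1.03 (adjusted p = 0.0151) against EV. EV was above both constructs with no overlap.

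Nucleotide genes gave 9 higher and 1 lower of 12, with Ctps, which makes CTP, at 1.60 (adjusted p = 0.0179), Umps, of UMP synthesis, at 1.22 (adjusted p = 0.00969) and Tk2, the mitochondrial thymidine kinase, at -0.99 (adjusted p = 0.00425) in MYD88_L265P and -0.61 (adjusted p = 0.0404) in IKK_K171E. Chromatin genes rose in 7 of 8. The histone chaperone Nasp was higher by 1.50 in MYD88_L265P (adjusted p = 0.00761) and 1.24 in IKK_K171E (adjusted p = 0.0421), and Rbbp7, a histone-binding protein, by 0.60 (adjusted p = 0.0169) and 0.71 (adjusted p = 0.0399). Hells, a chromatin remodeller, rose by 1.36 in MYD88_L265P (adjusted p = 0.0267).

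Of 15 other G1/S regulators 6 rose in MYD88_L265P, among them Cdca7, an E2F and MYC target, by 1.39 (adjusted p = 0.0341). E2f6, a repressing member of the E2F family, read 9.27 and 9.34 in MYD88_L265P, 8.74 and 8.56 in IKK_K171E, and 8.30 and 8.24 in EV. It was higher by 1.04 in MYD88_L265P than in EV (adjusted p = 0.00421) and by 0.65 than in IKK_K171E (adjusted p = 0.0267). E2f6 was the 1 gene of these lists called between the constructs, a count near the 0.873% of all features called higher there. Of 9 G1/S inhibitors none rose and 2 fell in MYD88_L265P, where 7.33% of all features were called lower. The 2 were Rbl2, the p130 pocket protein of resting cells, at -0.45 (adjusted p = 0.0182) and Cdkn2d, an inhibitor of CDK4 and CDK6, at -0.43 (adjusted p = 0.0211). Cdkn2d also fell in IKK_K171E, at -0.60 (adjusted p = 0.0357).

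**Figure D5:**
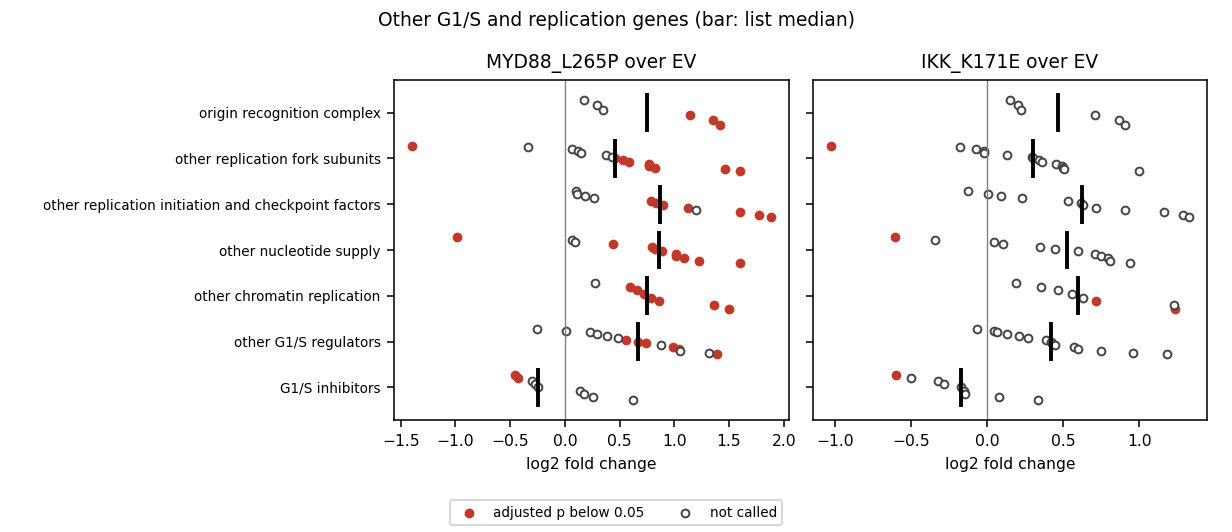
Log2 fold changes of the 77 other measured genes of G1/S and replication by list, with the list median as a bar, in MYD88_L265P over EV (left) and IKK_K171E over EV (right), and calls at an adjusted p below 0.05 in red. In MYD88_L265P over EV, medians are above 0 for 6 of the lists and -0.25 for G1/S inhibitors.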

How the data were processed

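The 6 arrays of sorted mouse B cells, 2 per group, were grouped by the labels. The values are log2 expression per feature as deposited by the authors, between 2.55 and 14.5, with array medians of 8.03 to 8.13. The submitters' processing notes name oligo and limma, and the normalization method and genome build are not given in the sources used here. Of 24743 features, 21542 had exactly 1 gene symbol and were tested; 1522 had several and 1679 none. No probe has a detection call, so low signal was handled only as an alternative. Group means over all 6 arrays were fitted in limma 3.58.1 (R 4.3.3) with eBayes (3 residual and 4.17 prior degrees of freedom) and Benjamini-Hochberg adjustment over all features; calls needed an adjusted p below 0.05. An exact permutation test of 2 arrays against 2 cannot go below p = 0.333. Where nothing says that replicates came from separate mice, p-values measure only the spread between these samples. The fit was tested on simulated data.

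Members were matched by symbol alone, but the members and gene lists were proposed and chosen with earlier results of these data known. Named genes followed a rule: every member, array values for the 2 largest changes of each functional group and for members called in the other comparisons or lower in both constructs, and 2 called genes of each further list plus any called in the other comparisons. Gins4, Rfc1, Rfc2 and Rbbp4 were named outside this rule, beside members of the same complexes. Alternatives were a replicate block, quantile normalization, a common median, a trended robust fit, array weights, low-signal and feature filters, fits of 2 groups, a 2-fold minimum and each array left out. Promoter windows (RefSeq, GRCm38.p6) were searched for exact words.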

Additional observations from a re-analysis of the deposited data

How the results depend on the processing

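No member called with all arrays changed sign under the alternatives run. Among members not called, leaving out 1 array turned the sign of 2 in MYD88_L265P over EV (Ccnd2 and Ccne1), of 4 in IKK_K171E over EV (Ccnd2, Cdt1, Dbf4 and E2f1) and of 10 in MYD88_L265P over IKK_K171E. Settings that keep all arrays turned 2, 2 and 6 in those comparisons. The count of members called higher in MYD88_L265P over EV, 26 as reported, was 33 with the replicate number as a block by the descriptions or by the titles, and 21 to 30 in the other settings that keep all arrays, except 19 with a 2-fold minimum. Quantile normalization gave 1 member called lower in MYD88_L265P over EV. For IKK_K171E over EV, 2 as reported, the counts were 19 and 24 with the block by descriptions and by titles, 5 with quantile normalization, 5 with a trended and robust fit and 0 with the 2 groups alone. For MYD88_L265P over IKK_K171E, 0 as reported, the block gave 1 and 7. Replicate 1 minus replicate 2, as numbered in the descriptions, was correlated between groups over all features. The correlation was 0.144 for MYD88_L265P with IKK_K171E, 0.105 for MYD88_L265P with EV and 0.211 for IKK_K171E with EV. Where these correlations come from was not tested. The labels do not say that a number marks a shared culture or day, and titles and descriptions number the arrays differently, so the fit without the block is the one reported and whether the numbers pair the arrays is not known. With 1 array left out, counts ran from 2 to 33 for MYD88_L265P over EV and from 0 to 17 for IKK_K171E over EV; a lone array is then assumed to vary like the other groups. The cause of these shifts was not tested, and the smaller number of arrays in each fit was not looked at separately. With 2 arrays a group, the number of arrays limits the precision.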
